A study of Mus musculus with 21 samples.

Results

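Saa3, Lcn2, Hp and Slpi, 4 genes of the acute-phase response, were followed through all treatments of a study of mouse bone-marrow-derived macrophages. They were taken from the count table by gene symbol, 4 of 34573 genes, and each was among the 6812 genes with enough counts to be tested. The macrophages were grown for 6 days from bone marrow of 12-week-old C57bl/6 mice in medium conditioned by L929 cells, a fibroblast line that secretes the growth factor M-CSF. Cells were left untreated, or received succinate, an intermediate of the citric acid cycle, or dimethyl malonate (DMM), the ester of an inhibitor of succinate dehydrogenase, for 3 h, and bacterial lipopolysaccharide (LPS) then followed for 4 or 48 h or was left out. Doses, and whether replicates were separate cultures or animals, are not given in the labels. The p-values therefore set group differences against the spread between libraries of a group, estimated over all groups, and that spread may be technical. The groups without LPS were control (3 libraries), DMM alone (4) and succinate alone (4), merged over both times because the count table does not give their hours. Where a replicate block or a split by set is used below, the set and replicate of these libraries were inferred from column numbers. With LPS for 4 h there were LPS alone (replicates A and B), DMM then LPS (A and B) and succinate then LPS (B). With LPS for 48 h there were LPS alone (replicate 2), DMM then LPS (1 and 2) and succinate then LPS (1).

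The acute-phase response is the change in secreted proteins that follows infection or injury, and much of it takes place in the liver under interleukin 6 and interleukin 1. The members here are also made by macrophages and epithelia. Saa3 is a serum amyloid A protein made outside the liver, and Lcn2 (lipocalin 2) binds bacterial siderophores and so withholds iron. Hp (haptoglobin) binds free haemoglobin for uptake through the receptor Cd163. Slpi (secretory leukocyte protease inhibitor) blocks serine proteases of neutrophils and dampens LPS signalling.

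C/EBP factors are textbook regulators of acute-phase genes, so the stretch of 250 bases before the start of each gene is printed for the members that the promoter table holds. RefSeq's table for GRCm38.p6 has 3 of the 4 members, and Hp is named here without a sequence. The windows are Saa3 chr7:46715677-46715926, Lcn2 chr2:32387740-32387989 and Slpi chr2:164356508-164356757, all on the minus strand and printed 5′ to 3′ as the gene reads. Capitals mark a match to the C/EBP half-palindrome TTGCNNAA or its reverse complement.
Saa3: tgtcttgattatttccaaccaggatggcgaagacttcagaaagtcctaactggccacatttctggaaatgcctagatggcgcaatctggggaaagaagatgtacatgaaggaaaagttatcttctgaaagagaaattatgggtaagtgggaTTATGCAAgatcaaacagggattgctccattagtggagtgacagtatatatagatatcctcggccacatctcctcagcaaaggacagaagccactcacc
Lcn2: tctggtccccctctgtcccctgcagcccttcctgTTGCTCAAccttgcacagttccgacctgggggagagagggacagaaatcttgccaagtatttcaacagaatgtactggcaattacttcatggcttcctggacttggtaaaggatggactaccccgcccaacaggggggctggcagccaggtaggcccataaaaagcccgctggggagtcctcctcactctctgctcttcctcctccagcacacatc
Slpi: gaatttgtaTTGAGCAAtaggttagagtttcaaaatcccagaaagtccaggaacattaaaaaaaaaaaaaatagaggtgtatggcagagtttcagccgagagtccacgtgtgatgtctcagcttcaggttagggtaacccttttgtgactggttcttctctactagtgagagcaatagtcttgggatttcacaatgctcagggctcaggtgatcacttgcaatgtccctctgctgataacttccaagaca
Each window held 1 match, which began 99 bases before the start in Saa3, 216 in Lcn2 and 241 in Slpi. Of 32851 promoter windows of this length, 9.56% held such a match. Neither the STAT motif TTCNNNGAA, the AP-1 motif TGANTCA, the TATA box TATAAA nor the NF-kB consensus was matched in these 3 windows on either strand. Those motifs were matched in 7.02%, 6.75%, 12.4% and 7.25% of all windows. A match describes letters and is no measured site.

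Library totals were 662186 to 1546867 counts. The library labelled LPS 48 h replicate 1 held 38 Saa3, 3 Lcn2, 0 Hp and 0 Slpi counts, levels like those of the unstimulated libraries, and was kept apart from the 20 libraries in the fit. Macrophage markers summed to 54800 to 92100 CPM, the counts of a gene per size-adjusted library total, in the 11 unstimulated and 77900 to 170000 CPM in the 9 stimulated libraries. Lyz2 gave most of this sum, 43300 to 77600 and 66300 to 135000 CPM. Of 9 tested markers, 4 were higher and 3 lower after LPS for 4 h, against 15.4% and 12.5% of all genes. The lower ones were Mrc1 (437 CPM in control, 3.20 CPM after LPS), Trem2 (732 and 10.2 CPM) and Cd68 (1954 and 304 CPM). Hepatocyte, epithelial and lymphocyte marker sums stayed at or below 11.1, 4.75 and 3.53 CPM, and fibroblast markers at or below 41 CPM. The neutrophil list summed to 7.14 to 31.3 CPM without LPS and 72.3 to 5010 CPM with it, and its members Ly6g, Ltf, Ctsg and Retnlg were at 0 counts in all 20 libraries.

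Without LPS the 4 genes were near or at the detection limit apart from Saa3. Saa3 counts were 30, 50 and 61 in the control libraries, while Lcn2 had 0, 3 and 1 counts, Hp 2, 1 and 0, and Slpi 1, 0 and 0. Reads carry no molecular identifiers, so counting limits cover counting error alone, and a count of 0 allows up to 3 counts. LPS brought all 4 genes into the upper part of the expressed genes, with no overlap between stimulated and unstimulated libraries. After 4 h of LPS, Saa3 counts were 80970 and 94639 and Lcn2 counts 5657 and 6184. Hp had 1926 and 1774 counts and Slpi 1731 and 1780, so the A and B libraries lay close together. After 48 h the 1 library of LPS alone held 97578 Saa3, 5686 Lcn2, 1422 Hp and 636 Slpi counts.

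Relative to control, counts summed over libraries and divided by their TMM-adjusted library sizes were 1880-fold higher for Saa3 after 4 h (95% counting interval 1600 to 2240). The ratio was 4480 for Lcn2 (1750 to 16400) against 4 control counts, 1870 for Hp (638 to 9050) against 3, and 5310 for Slpi (952 to 210000) against 1. The width of the last interval comes from that single count. After 48 h the ratios were 1890 for Saa3 (1600 to 2240), 3870 for Lcn2 (1510 to 14200), 1290 for Hp (441 to 6270) and 1730 for Slpi (310 to 68600). By library totals alone, without that adjustment, the ratios were smaller, 1260, 3000, 1250 and 3560 for Saa3, Lcn2, Hp and Slpi at 4 h and 1350, 2780, 926 and 1240 at 48 h. In edgeR's quasi-likelihood test with Benjamini-Hochberg adjustment over all genes tested, all 4 rose at 4 h and all 4 at 48 h. The largest adjusted p was 1.92e-13 at 4 h and 2.24e-11 at 48 h, both for Slpi. For comparison, 15.4% of all genes tested were higher and 12.5% lower at an adjusted p under 0.05 at 4 h, and 12.5% were higher and 8.29% lower at 48 h. By fitted log2 fold change Lcn2 ranked 1 and Slpi 2 of 6812 genes at 4 h, Saa3 ranked 7 and Hp 8. At 48 h Lcn2 again ranked 1, followed by Saa3 at 3, Slpi at 7 and Hp at 10. The ranks of Lcn2, Hp and Slpi rest on 4, 3 and 1 control counts, and these genes passed the count filter through the stimulated libraries. The members were chosen with earlier results of these data known, so the ranks are a description alone. With the mean of the stimulated groups (9 libraries) set against that of the unstimulated groups (11 libraries), each group weighing the same, the 4 genes were higher. So were 23.8% of genes tested. The 48 h comparison has 1 library on the LPS side, whose spread is assumed to be that of the other groups. With the library kept apart added to its group, all 4 stayed called at 48 h, and the largest adjusted p became 0.0099.

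**Figure D1:**
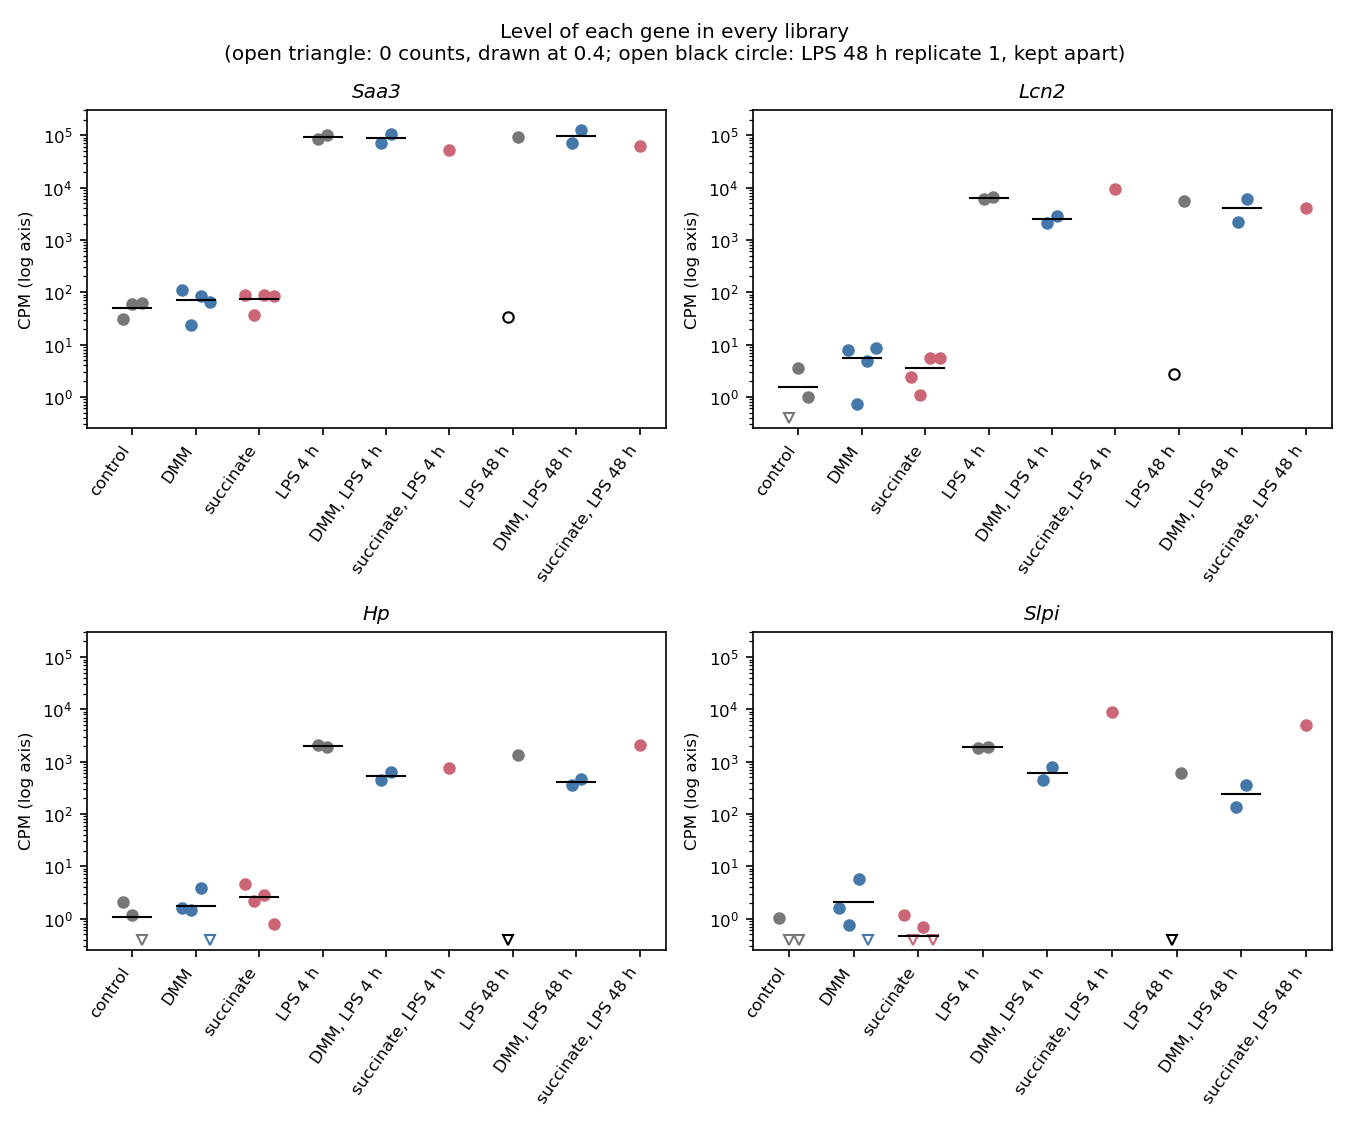
CPM of each gene (log axis) in every library by group, where filled circles are libraries in the fit and bars are group means; open triangles are libraries at 0 counts, drawn at 0.4 CPM, and the black open symbols are the LPS 48 h library kept apart. Stimulated Slpi runs from 139 to 8866 CPM, while stimulated Saa3 stays between 52967 and 124675 CPM.

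Saa3 was among the most abundant transcripts after LPS, at rank 1 to 4 by count in the 9 stimulated libraries. It took 6.73% and 7.33% of all counts after LPS for 4 h, and 7.55% after 48 h. In DMM then LPS its share was 8.17% and 9.18% at 4 h and 8.63% and 8.87% at 48 h, above LPS alone in each of the 4 libraries. In succinate then LPS it was 3.95% at 4 h and 4.73% at 48 h, below every other stimulated library. The 4 genes together held 5.38% (95% Wilson interval 5.34 to 5.42%) of counts in succinate then LPS for 4 h and 5.56% (5.52 to 5.6%) for 48 h. In the other 7 stimulated libraries they held between 7.5% and 9.56%, against 0.00349 to 0.0126% in the unstimulated ones. Saa3 made up 73.4% of the 4 genes' counts in succinate then LPS for 4 h and 85% for 48 h, and 89.7 to 96.2% in the other stimulated libraries.

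**Figure D2:**
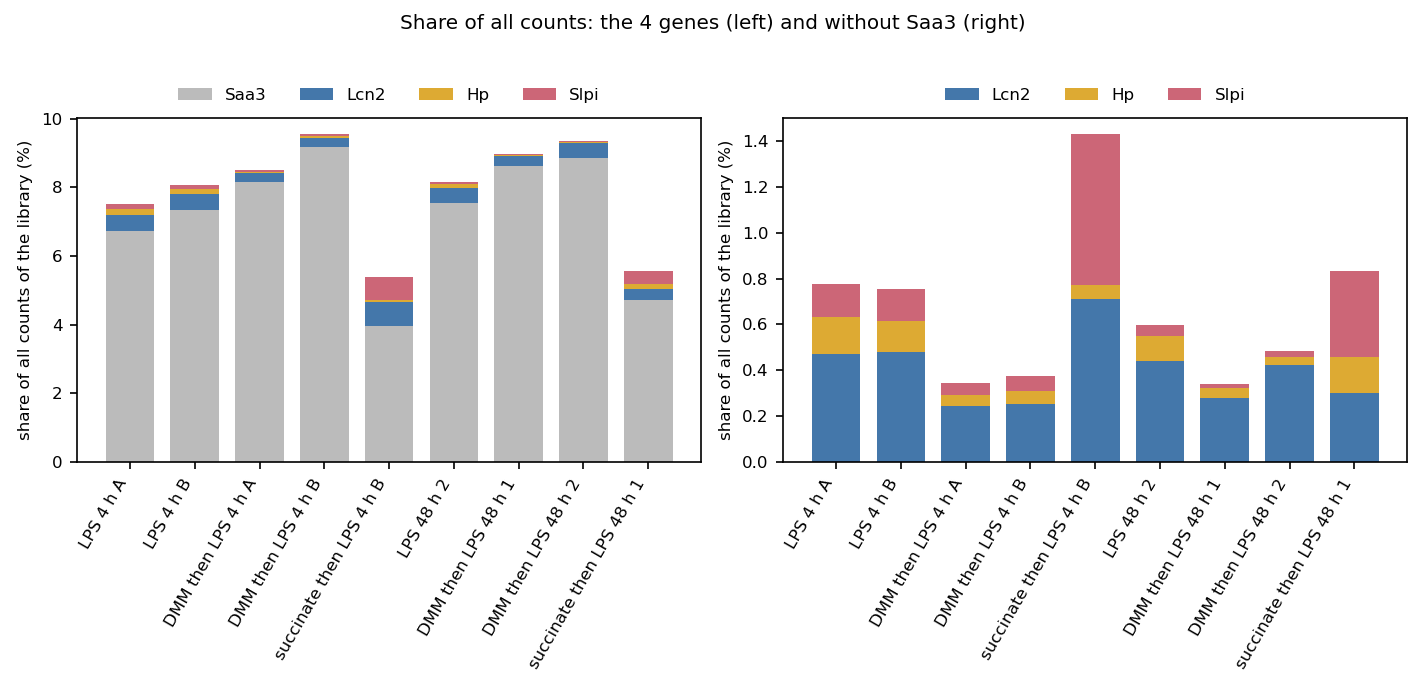
Share of all counts (percent, linear axis) in each of the 9 stimulated libraries, stacked for the 4 genes on the left and for Lcn2, Hp and Slpi on the right. The DMM libraries have the tallest Saa3 bars, 8.17% to 9.18%, and the 2 succinate libraries the largest Slpi segments, 0.661% and 0.377%.

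Hp and Slpi were lower with DMM before LPS at 4 h, while Saa3 did not pass the test. The values below are CPM after TMM scaling, which sets each library against the bulk of its genes. Hp was at 2054 and 1908 CPM after LPS for 4 h and at 447 and 633 CPM after DMM then LPS. The groups did not overlap, and the means, 1981 ± 103 (SD, n = 2) and 540 ± 131 (SD, n = 2), differed 3.67-fold. The log2 fold change of Hp was -1.88 ± 0.39 (SE, edgeR adjusted p = 0.00136). Slpi was at 1846 and 1915 CPM after LPS and at 448 and 782 CPM after DMM then LPS, again without overlap. It was 3.06-fold lower, a log2 fold change of -1.61 ± 0.47 (edgeR adjusted p = 0.0187). Of all genes tested, 10.5% were lower and 3.54% higher in this comparison. Some markers of other cells and of macrophages moved in the same libraries. The fibroblast list summed to 33.4 to 41 CPM after DMM then LPS for 4 h and 7.53 to 16 CPM after LPS. Most of the DMM sum was 1 gene, Dcn, the matrix protein decorin, with means of 32.8 CPM and 6.42 CPM. Dcn was higher by 2.34 on the log2 scale (edgeR adjusted p = 0.00243). It was the 1 gene of 7 in the list with enough counts to be tested. At 48 h that list was at 18.8 to 21.9 CPM with DMM and 10.6 CPM without. Of 9 tested macrophage markers Trem2 was higher at 4 h (log2 1.74), the M-CSF receptor gene Csf1r (-1.43) and Emr1 (-1.66) were lower, and 6 did not pass. The part of these shifts in the Hp and Slpi result was not tested.

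Lcn2 was at 6033 and 6652 CPM after LPS for 4 h and at 2106 and 2843 CPM after DMM then LPS. The groups did not overlap, but its log2 fold change of -1.36 ± 0.49 (95% interval -2.35 to -0.36) did not pass the threshold (edgeR adjusted p = 0.0594). It passed under DESeq2 (adjusted p = 0.045), without the filter on low counts (0.00475), with the replicate block (0.00382) and with the unstimulated groups split by set (0.0454). It also passed without DMM then LPS 48 h replicate 1 (0.0178) or 2 (0.0163), or without DMM library 2 (0.0432). Saa3 was at 86349 and 101804 CPM after LPS and 71042.5 and 104115 CPM after DMM then LPS, so the groups overlapped. Its log2 difference was -0.10 (95% interval -1.16 to 0.96, edgeR adjusted p = 0.921) and turned to 0.31 when libraries were scaled by their totals alone. That scaling moved the median of all genes from 0.0404 to 0.495 in this comparison, and raised the higher share of called genes from 25.2% to 54.4%. Relative to those medians Saa3 lay below the typical gene under both scalings, by values of -0.14 and -0.18. The Hp call was lost without DMM then LPS 4 h replicate A (-1.64, adjusted p = 0.0677). The Slpi call was lost without DMM then LPS 4 h replicate A (0.254), or without LPS 4 h replicate A (0.079) or B (0.0892).

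At 48 h the DMM libraries again had the lowest Hp. Hp was at 1372 CPM after LPS and at 353 and 473 CPM after DMM then LPS, 3.32-fold apart. The log2 fold change of -1.73 ± 0.45 (95% interval -2.65 to -0.81) lay just outside the threshold (edgeR adjusted p = 0.0534). In this comparison 0.661% of genes tested were lower and 0.147% higher. Hp passed under DESeq2 (adjusted p = 0.00356), without the filter on low counts (0.00283), with library totals alone (0.0201), with the replicate block (0.0266) and with the unstimulated groups split by set (0.0111). Leaving out control library 4 (0.042), succinate library 3 (0.0392) or 4 (0.0437), or DMM then LPS 48 h replicate 2 (0.0154) also brought it past the threshold. Slpi was at 614 CPM after LPS and at 139 and 352 CPM after DMM, a log2 difference of -1.32 (95% interval -2.44 to -0.20, edgeR adjusted p = 0.278). Without DMM then LPS 48 h replicate 2 it was -2.10 (adjusted p = 0.0253). Lcn2 was at 5488 CPM after LPS and at 2241 and 5949 CPM after DMM, and Saa3 at 94180.5 against 69683 and 124675 CPM. For both genes the LPS value lay between the DMM libraries, and the log2 differences were -0.42 (95% interval -1.60 to 0.76) and 0.05 (-1.25 to 1.34).

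Averaged over both times, a comparison added after the single times were seen, Hp fell by 1.80 ± 0.30 and Slpi by 1.47 ± 0.36 on the log2 scale with DMM (edgeR adjusted p = 6.93e-05 and 0.00444). Hp was lower in 4 of 4 DMM libraries than in any LPS library, while for Slpi DMM then LPS 4 h replicate B, at 782 CPM, lay above LPS 48 h at 614 CPM. Over the leave-one-out fits the adjusted p was 2.1e-05 to 0.00216 for Hp and 0.000243 to 0.0416 for Slpi. Lcn2, at -0.89 ± 0.37 (adjusted p = 0.0983), passed without DMM then LPS 48 h replicate 2 (-1.30, adjusted p = 0.00614). Saa3 was at -0.03 (95% interval -0.87 to 0.81). Of all genes, 11.9% were lower. The DMM effect at 48 h minus that at 4 h was 0.14 for Hp (95% interval -1.09 to 1.38) and 0.29 for Slpi (-1.20 to 1.79). It passed for 0 genes (0%) in edgeR, where 357 had an unadjusted p under 0.05, and for 1 gene in DESeq2. With the library labelled LPS 48 h replicate 1 in the fit, no DMM difference passed. At 4 h the adjusted p was then 0.427 for Hp and 0.486 for Slpi at nearly the same fold changes, -1.87 and -1.61.

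**Figure D3:**
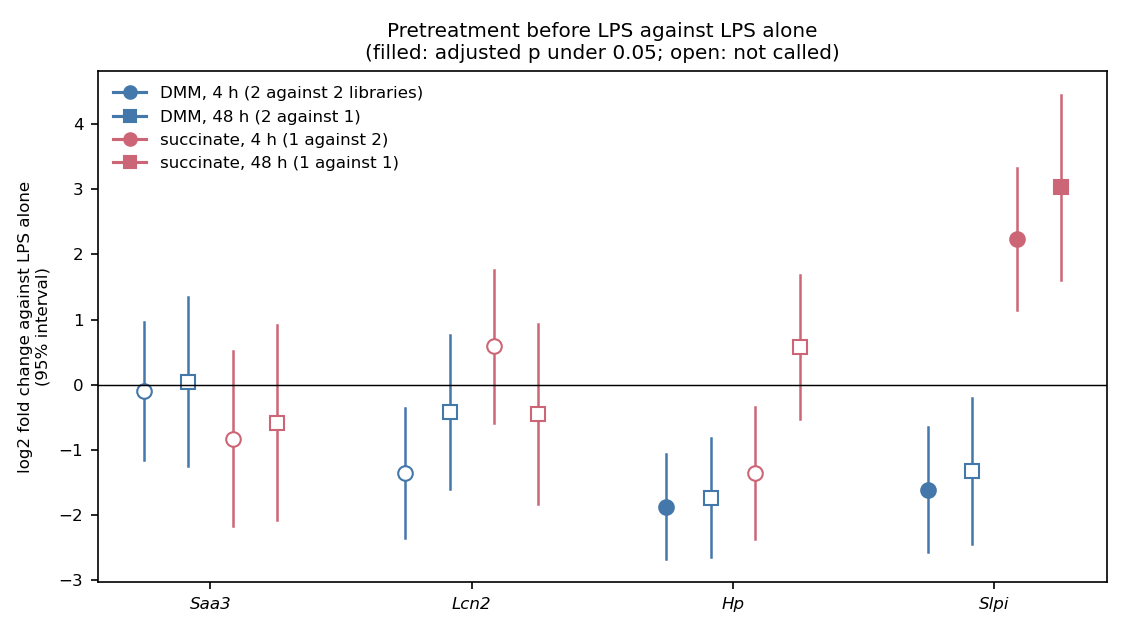
Log2 fold change of each gene for DMM or succinate before LPS against LPS alone, at 4 h (circles) and 48 h (squares), with 95% intervals from the fit; filled symbols passed an adjusted p of 0.05. Slpi lies at -1.61 and -1.32 with DMM and at 2.24 and 3.03 with succinate, and Hp with DMM at -1.88 and -1.73.

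Slpi was higher in the 1 library of succinate then LPS at each time and passed the test there, with a spread borrowed from the other groups, and no other member passed. Slpi was at 8866 CPM in succinate then LPS for 4 h, above the 1846 and 1915 CPM of LPS alone. It was 4.71-fold higher, a log2 fold change of 2.24 ± 0.54 (edgeR adjusted p = 0.0327). In that comparison 0.528% of genes tested were higher and 0.499% lower. At 48 h Slpi was at 5013 CPM against 614 CPM, 8.17-fold higher, a log2 fold change of 3.03 ± 0.70 (edgeR adjusted p = 0.0369), where 0.338% of genes were higher and 0.22% lower. Since each succinate group is 1 library, its own spread is unknown and is assumed to be that of the other groups. The 4 h call was lost without LPS 4 h replicate A (adjusted p = 0.313) or B (0.26), and the 48 h call without LPS 4 h replicate A (0.0561) or B (0.0538) or control library 3 (0.052). Averaged over both times, again a comparison added later, Slpi was higher by 2.63 ± 0.44 (edgeR adjusted p = 0.000414, 0.00341 at most over the leave-one-out fits), and 1.1% of genes were higher. Both succinate libraries lay above all LPS libraries. With the library labelled LPS 48 h replicate 1 in the fit, the Slpi fold change was 2.25 ± 1.48 (adjusted p = 0.984) at 4 h, and 4.01 ± 1.53 (adjusted p = 0.42) at 48 h, where that library joins LPS alone.

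Of 4 tested genes of the neutrophil list, Mmp9, Mmp8 and S100a8 were higher in the succinate libraries at both times. The fourth, Csf3r, the receptor of the growth factor G-CSF, was at 15.4 against 54.6 CPM at 4 h and 11.4 against 46.3 CPM at 48 h. It did not pass at either time (edgeR adjusted p = 0.174 and 0.268) and was lower over both times together (log2 -1.92, adjusted p = 0.00831). The neutrophil list summed to 5010 CPM in succinate then LPS for 4 h and 1700 CPM for 48 h. Mmp9, a gelatinase that stimulated macrophages also express, gave 3838 and 1341 CPM of these sums. In LPS alone the list summed to 283 and 308 CPM at 4 h and 190 CPM at 48 h, and in DMM then LPS to 320 and 440 CPM at 4 h and 91.5 and 72.3 CPM at 48 h. Without Mmp9 the sums were 1170 and 358 CPM with succinate, 128, 169 and 80.1 CPM with LPS alone and 302, 414, 78.6 and 64.8 CPM with DMM. Most of the DMM sums without Mmp9 at 4 h came from S100a8, at 200 and 320 CPM, against 41.6 and 66.7 CPM in LPS alone. Other genes of the list had few counts, unlike Mmp8 and Mmp9, whose proteins are also stored in neutrophil granules. Camp, Mpo, Elane and Prtn3 reached at most 2, 1, 1 and 1 counts in a library, S100a9 at most 1 and Cxcr2 at most 6. The part of neutrophils in the Slpi result was not tested. In bulk samples, a change in the number of cells of a type and a change in RNA per cell cannot be told apart.

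The other members did not follow Slpi with succinate. Saa3 was at 52967 CPM at 4 h and 62935 CPM at 48 h, the 2 lowest values among the stimulated libraries. The log2 differences from LPS alone were -0.83 (95% interval -2.17 to 0.52) and -0.58 (-2.08 to 0.92). Hp was at 775 CPM at 4 h, below both LPS libraries, and at 2056 CPM at 48 h, above LPS alone. Its log2 differences were -1.35 ± 0.50 (edgeR adjusted p = 0.34) and 0.58 ± 0.54 (adjusted p = 0.995). The difference between these effects was 1.94 ± 0.73 (unadjusted p = 0.0126, edgeR adjusted p = 1). It passed for 0 genes (0%), with 236 at an unadjusted p under 0.05 and 0 by DESeq2. Lcn2 was at 9560 CPM at 4 h, the highest library of all, and at 4014 CPM at 48 h, with log2 differences of 0.59 (95% interval -0.58 to 1.77) and -0.45 (-1.84 to 0.94).

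Set directly against each other under LPS, DMM and succinate were furthest apart for Slpi, 14.4-fold at 4 h and 20.4-fold at 48 h. The log2 fold changes, DMM against succinate, were -3.85 ± 0.55 (edgeR adjusted p = 3.65e-05) and -4.35 ± 0.56 (adjusted p = 1.01e-05). Lcn2 was 3.86-fold lower with DMM at 4 h (-1.95 ± 0.56, adjusted p = 0.0288), a call that was lost without DMM then LPS 4 h replicate A (0.227) or B (0.0792). At 48 h the log2 difference of Lcn2 was 0.03 (95% interval -1.17 to 1.23). Hp showed the reverse order in time, with -0.52 (95% interval -1.46 to 0.42) at 4 h and -2.32 ± 0.45 (edgeR adjusted p = 0.00183) at 48 h. Whether these differences themselves changed between times was not tested. Saa3 was at 0.73 (-0.61 to 2.06) and 0.63 (-0.71 to 1.96). Of all genes, 6.5% were lower with DMM at 4 h and 3.1% at 48 h. Over both times together Slpi was lower by 4.10 ± 0.39 and Hp by 1.42 ± 0.32 with DMM (log2 values of -4.10 and -1.42, adjusted p = 1.78e-08 and 0.00215), and 12.1% of genes were lower. Lcn2 there was at -0.96 ± 0.40 (adjusted p = 0.103), and at -1.39 (0.00587) without DMM then LPS 48 h replicate 2. With the replicate block it was at -1.38 (0.00119). With the library labelled LPS 48 h replicate 1 in the fit, none of the single-time differences passed, and over both times Slpi alone did.

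No member passed the test between 4 and 48 h of LPS, and Slpi had the largest differences, toward lower values at 48 h without a replicate block. Slpi was at 1846 and 1915 CPM at 4 h and 614 CPM at 48 h with LPS alone, a log2 difference of -1.61 ± 0.61 (edgeR adjusted p = 0.849). In that comparison 0.0147% of genes passed. With DMM, Slpi went from 448 and 782 CPM to 139 and 352 CPM (-1.32 ± 0.47, adjusted p = 0.191), where 1.17% of genes passed. Averaged over the 3 pretreatments Slpi was 2.38-fold lower at 48 h, a log2 difference of -1.25 ± 0.33 (edgeR adjusted p = 0.0605), where 1.23% of genes passed. With the replicate block, which sets LPS against the unstimulated libraries of each inferred set, the average turned to 1.85 (adjusted p = 0.583). The direction of the average thus depends on that choice and on the inference. The estimate with the block rests on unstimulated Slpi, which had 11 counts over 11 libraries and 0 in 5 of them. In CPM, stimulated Slpi was lower at 48 h within each pretreatment, with 8866 and 5013 CPM in the succinate libraries. The Slpi differences of LPS alone and of DMM then LPS likewise turned to 0.84 (adjusted p = 0.869) and 1.65 (0.569). The average without the block passed under DESeq2 (0.0121), and also without DMM then LPS 48 h replicate 1 (0.044) or 2 (0.00518) or DMM library 3 (0.0392). The averaged log2 difference was 0.13 for Saa3 (95% interval -0.61 to 0.88), -0.24 for Lcn2 (-0.94 to 0.45) and 0.16 for Hp (-0.39 to 0.71).

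Neither pretreatment alone raised a member past the test. Saa3 counts were 69, 32, 87 and 75 in the DMM libraries and 76, 33, 127 and 108 in the succinate libraries, beside 30, 50 and 61 in control. Lcn2 had at most 10 counts, Hp at most 4 and Slpi at most 6 in any unstimulated library, and the ranges overlapped control for all 4 genes. The log2 differences of Saa3 were 0.47 (95% interval -0.43 to 1.37) with DMM and 0.57 (-0.32 to 1.47) with succinate. Of all genes, 0.558% passed with DMM. With succinate 0 genes (0%) passed in edgeR, where 363 had an unadjusted p under 0.05, and 2 passed in DESeq2.

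Ratios of counts within a library do not depend on scaling between libraries. After LPS alone for 4 h there were 0.899 and 1 Slpi counts per Hp count, and after DMM then LPS 1 and 1.23. Hp and Slpi were thus lower with DMM in like proportion at 4 h. The ratio was 11.4 in succinate then LPS for 4 h and 2.44 for 48 h, above the 0.447 of LPS alone for 48 h and the 0.394 and 0.746 of DMM then LPS for 48 h. Per 1000 Saa3 counts there were 23.8 and 18.7 Hp counts after LPS for 4 h, against 6.3 and 6.08 with DMM. At 48 h the figures were 14.6 with LPS alone, 5.07 and 3.79 with DMM and 32.7 with succinate. Lcn2 per 1000 Saa3 counts was 69.9 and 65.3 after LPS for 4 h, 29.6 and 27.3 with DMM and 180 with succinate. On this scale all 4 DMM libraries lay below both LPS alone and succinate of the same time for Lcn2, Hp and Slpi. No test was made on these ratios.

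**Figure D4:**
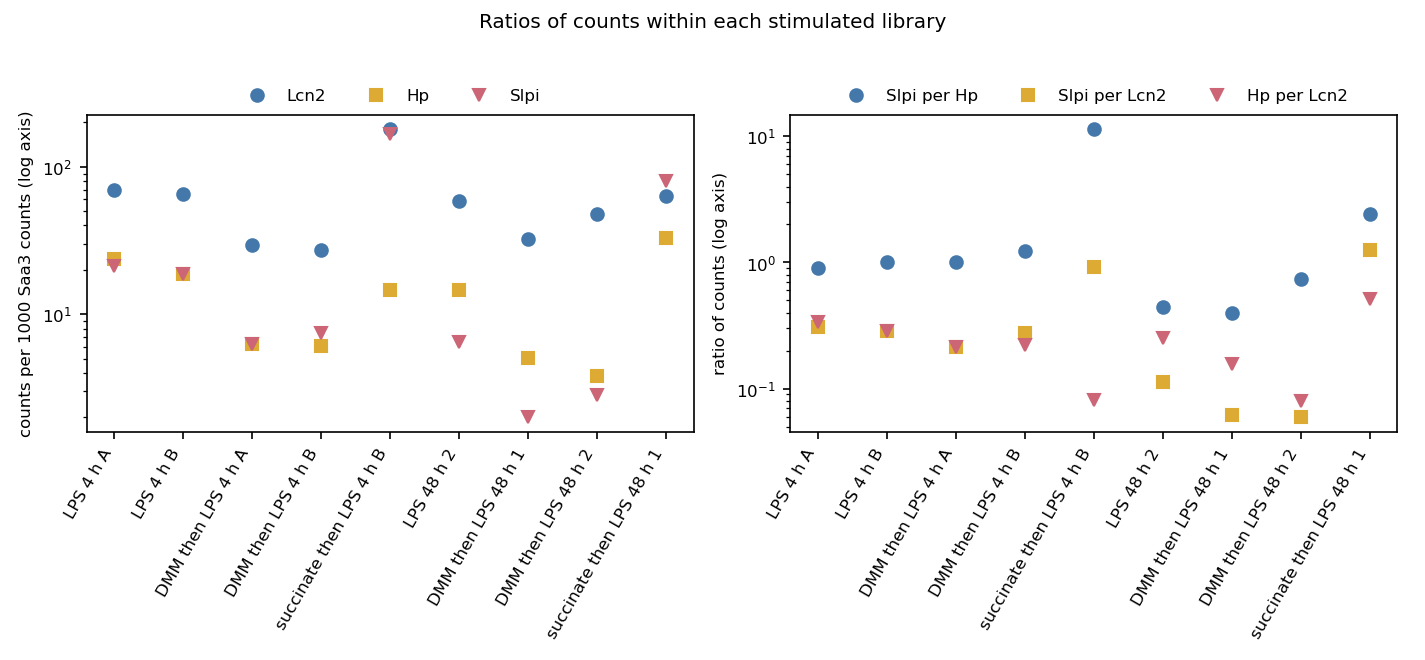
Ratios of counts within each of the 9 stimulated libraries (log axes): Lcn2, Hp and Slpi per 1000 Saa3 counts on the left, and Slpi per Hp, Slpi per Lcn2 and Hp per Lcn2 on the right. The succinate then LPS 4 h library stands at 11.4 Slpi per Hp, while the LPS and DMM libraries lie between 0.394 and 1.23.

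Per kilobase of annotated exon, Saa3 was the most abundant in every stimulated library, with a median of 33135 CPM per kb (range 20325 to 47842). Lcn2 followed with a median of 2092 CPM per kb (803 to 3645). Hp had a median of 482 CPM per kb (220 to 1280) and Slpi 663 (118 to 7514), and the order of these 2 changed between libraries. Slpi exceeded Lcn2 per kb in both succinate then LPS libraries, at 7514 against 3645 and 4248 against 1530 CPM per kb, and in no LPS or DMM library. Read sharing between related genes bears on Saa3 in a small part: 7.56% of its annotated 31-base stretches occur in other genes, and 30 of 2593 in Saa1, Saa2 or Saa4. Saa1 had at most 10 counts in any library, Saa2 at most 2 and Saa4 at most 1. Slpi overlaps a microRNA gene, Mir7678, on the same strand.

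The genes whose levels over the 9 stimulated libraries were most like each member were taken from 120 genes with strong induction. Likeness was the root mean square difference of log2(CPM + 1) after centring each gene, so that a smaller value is more alike. For Saa3 these were Hmox1 (0.141), which breaks down haem, Pfkfb3 (0.196), a regulator of glycolysis, and P4ha1 (0.301), a collagen hydroxylase, against a median of 0.865 over the 120. For Lcn2 they were Irg1 (0.315), which makes itaconate, Sod2 (0.327) and Prdx5 (0.338), both antioxidant enzymes, against a median of 0.689. For Hp they were Gm15280 (0.362), Tma16 (0.408) and Lpcat2 (0.425, a lysophospholipid acyltransferase), against 0.822. For Slpi they were the chemokine gene Cxcl2 (0.616), Il1b (0.788), which encodes interleukin 1 beta, and the connexin gene Gja1 (0.871), against 1.51. Slpi varied most, over 5.98 log2 units, and Saa3 least, over 1.24. Among the members Saa3 and Lcn2 were the most alike (0.79) and Saa3 and Slpi the least (2.00). The 0.79 lies between the medians over the 120 genes, 0.689 for Lcn2 and 0.865 for Saa3. The 9 points share libraries and scaling, and no p is given.

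Cxcl2 was picked for its likeness to Slpi in these same libraries, so a like order follows from the choice. It was at 244 and 252 CPM after LPS for 4 h, 73.1 and 81.7 CPM after DMM then LPS and 1135 CPM after succinate then LPS. At 48 h it was at 54.1, then 17.8 and 13.2, and 308 CPM. The order was not the same throughout. LPS alone at 48 h lay below both libraries of DMM then LPS for 4 h in Cxcl2, and between them in Slpi.

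Genes around the members were counted in lists, and each count is read against the share of all genes tested that passed in the same comparison. These shares were 15.4% higher and 12.5% lower after LPS for 4 h, and 12.5% and 8.29% after 48 h. With DMM they were 3.54% and 10.5% at 4 h and 0.147% and 0.661% at 48 h, and with succinate 0.528% and 0.499% at 4 h and 0.338% and 0.22% at 48 h. Averaged over both times with DMM, the comparison added later, 370 of 6812 genes were higher and 11.9% lower. A count near such a share is no result about its list. Of 32 further acute-phase proteins, 7 had enough counts to be tested. LPS for 4 h raised 5 of them, with a median log2 fold change of 3.91 against -0.07 over all genes. Complement C3 went from 7.01 to 743 CPM (log2 fold change 6.69), Il1rn, the interleukin 1 receptor antagonist, from 9.56 to 422 CPM (5.45) and Cd14, the LPS co-receptor, from 1308 to 4896 CPM (1.90). Mt1, a metallothionein, did not pass at 4 h (-0.56). Cp and Cfb were the other 2 that rose. Proteins typical of the liver response were absent from the counts: Orm2, Fga, Fgb, Fgg, Hpx, Apcs, Hamp and A2m were at 0 in all 21 libraries. At 48 h 5 rose and Mt1 fell (-1.69). With DMM at 4 h, Il1rn (0.97) and Mt2 rose while Cfb fell, so they did not all follow Hp and Slpi, and at 48 h none of 7 passed. Averaged over both times with DMM, 1 of 7 was higher (Il1rn) and 2 were lower (Cd14 and Cfb). With succinate at 4 h Mt1 (1.87) and Mt2 rose and Il1rn fell by 2.15 on the log2 scale. At 48 h Mt1 rose by 2.23 and Il1rn fell by 2.64. The list's median log2 fold change was -0.40 with DMM and 0.87 with succinate at 4 h, and 0.12 and 0.54 at 48 h.

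Of 15 upstream cytokine and receptor genes 9 were tested. LPS for 4 h raised 6 and lowered 3, among them Il1b, from 3.20 to 7887 CPM, and Tnf, from 5.29 to 365 CPM. The interleukin 6 receptor subunits Il6ra and Il6st and the LPS receptor Tlr4 were the 3 that fell. Il6 itself had at most 3 counts in a library. With DMM 1 of 9 fell at each time, Tnf at 4 h (-1.58 ± 0.28, edgeR adjusted p = 0.000265) and Il1b at 48 h (-2.75 ± 0.53, adjusted p = 0.00496). The count at 4 h is near the 10.5% of all genes that were lower. Averaged over both times with DMM, 3 of 9 were lower (Il1b, Tnf and Myd88), against 11.9% of all genes. With succinate 0 of 9 passed at either time. Il1b was 0.96 higher at 4 h (adjusted p = 0.713) and 1.07 higher at 48 h (adjusted p = 0.886) on the log2 scale. At 48 h of LPS 5 of 9 were higher and 1 lower. The list's median log2 fold change was 1.33 after LPS for 4 h and -0.15 with DMM then LPS for 4 h.

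Of 16 transcription factors and feedback regulators of acute-phase genes 10 were tested, and 9 rose with LPS for 4 h, with a median of 2.51. They included the C/EBP factor gene Cebpd, Stat3 from 89.2 to 164 CPM, the NF-kB cofactor Nfkbiz from 8.04 to 63.8 CPM and the feedback inhibitor Socs3 from 2.52 to 417 CPM. At 48 h 8 rose. With DMM at 4 h Zc3h12a, an RNase that limits cytokine mRNAs, was 1 of 10 to pass, and it fell, a share near the 10.5% of all genes. The values of Stat3 (-0.76, edgeR adjusted p = 0.0727), Nfkbiz (-0.15), Socs3 (0.40) and Nfkbia (-0.53) did not pass. With DMM at 48 h and with succinate at either time 0 of 10 passed. Averaged over both times with DMM, 4 of 10 were lower (Cebpd, Stat3, Nfkb2 and Zc3h12a), against 11.9% of all genes. Cebpd was there at -1.95 on the log2 scale (edgeR adjusted p = 0.00528). The median was -0.50 with DMM at 4 h and -0.89 at 48 h, against 0.04 and 0.01 over all genes.

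Of 16 receptors, ligands and targets of the members 9 were tested. LPS for 4 h raised Hmox1, which degrades haem taken up with haptoglobin, from 154 to 12337 CPM, and the formyl peptide receptors Fpr1, from 2.47 to 1942 CPM, and Fpr2, a receptor of serum amyloid A. It also raised Cd36 and lowered Cd163, the scavenger receptor for haptoglobin-haemoglobin, as well as Scarb1 and P2rx7. At 48 h 4 rose and 3 fell. With DMM at 4 h Fpr1 (-2.16), Cd36 (-2.01) and Fpr2 fell, and at 48 h Fpr1 fell by 2.02. Hmox1 was at -0.22 (adjusted p = 0.761) at 4 h. Averaged over both times with DMM, 4 of 9 were lower (Fpr1, Fpr2, Tlr2 and Cd36), against 11.9% of all genes. With succinate 0 of 9 passed at either time. The neutrophil proteases Elane and Ctsg, which Slpi inhibits, and Prtn3 had at most 1 count in any library. Of 18 WAP-domain and lipocalin relatives Wfdc17, a WAP-domain gene, was tested. It rose from 50.1 to 315 CPM with LPS for 4 h and fell by 1.79 with DMM (edgeR adjusted p = 0.00597). With succinate it was at -1.51 at 4 h (adjusted p = 0.367), on the other side of 0 from Slpi at 2.24, and the difference between the 2 genes was not tested.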

How the data were processed

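RNA from lysed macrophages was turned into amplified full-length cDNA libraries by a variant of SmartSeq2, per the labels' protocols, which name no molecular identifiers. The authors deposited read counts for each gene symbol. TopHat2, Bowtie, HTSeq and edgeR are named in the submitters' processing notes. Versions, genome build, annotation and strand setting were not given in the sources used here.

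All 20 libraries in 9 groups entered 1 edgeR 4.0.16 quasi-likelihood fit (R 4.3.3, robust, TMM scaling, 11 residual degrees of freedom). A gene was tested when 2 or more libraries exceeded 9.64 CPM, which is 10 reads at median depth, and its total reached 15. P-values were adjusted by Benjamini-Hochberg over the 6812 genes tested, and calls use 0.05. CPM was computed from library sizes with TMM factors of 0.717 to 1.32. Columns without LPS were mapped to treatments by name. Their set and replicate, which the labels do not give, were inferred from column numbers for the replicate block and the split by set. The members and lists were chosen with earlier results of these data known. Likeness genes needed a call, a log2 fold change of at least 3 and a mean of 50 CPM. For each list, values are given for up to 4 tested genes of highest mean CPM; other genes are named where called or as relevant background. Exon lengths came from GENCODE M21. Alternatives were another tool (DESeq2 1.42.0), size factors, filters, scalings, groupings and libraries left out. The fit was also run on simulated counts that had no LPS effect and the same dispersion for every gene. That setting is simpler than these data, and no result here rests on it.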

Additional observations from a re-analysis of the deposited data

Results flagged for a closer look

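In succinate alone, 1 of 4 libraries stood apart for Saa3: library 2 was at 36.0 CPM, while the other 3 lay between 84.6 and 89.3 CPM. The gap exceeded Dixon's 95% critical value for 4 libraries. This was 1 of 8 sets of values so tested, the 4 genes in each of the 2 groups of 4 libraries (DMM and succinate), and chance flags about 1 in 20. DMM library 2 also had the lowest Saa3 of its group, at 23.9 CPM, and was not past that value.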

How the results depend on the processing

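Over 97 results and 11 kinds of setting, 717 of 766 values counted as unchanged, 49 did not, and 0 of the called values reversed sign. A gene's value counted as unchanged when it stayed on its side of the threshold. Values not called could therefore change sign and still count, as the Slpi time differences did with the replicate block. Numbers of members called and shares of counts were allowed a small change. LPS against control kept 4 of 4 members at both times under all settings run. With the library labelled LPS 48 h replicate 1 in the fit, the members called became 0 for DMM at 4 h, for succinate at 4 h and 48 h, for DMM against succinate at 4 h and 48 h, and for the averaged DMM and averaged succinate effects, and 1 for the averaged DMM against succinate. DMM at 48 h went from 0 to 1 member (Hp) with no filter, library totals alone, the replicate block, unstimulated groups split by set, or DESeq2. DMM at 48 h against DMM at 4 h went from 0 to 1 (Slpi) with no filter or library totals alone. The 48 h against 4 h average went from 0 to 1 (Slpi) with no filter, library totals alone, groups split by set, or DESeq2. Why these counts moved was not tested. Leaving out 1 library at a time, the members called were 0 to 3 for DMM at 4 h, 0 to 2 for DMM at 48 h, 0 to 1 for succinate at 4 h and at 48 h, 1 to 2 for DMM against succinate at 4 h and 0 to 1 for the 48 h against 4 h average. Fits that leave a group with 1 library assume that it varies like the others.

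The A and B libraries did not pair clearly: their differences correlated at 0.0688 over 1400 genes between LPS 4 h and DMM then LPS 4 h (2 pairs), which does not settle whether the letters pair the samples. With the replicate block, genes called for DMM at 4 h rose from 956 to 1322 and for DMM at 48 h from 55 to 134. For the time average the block sets LPS against the unstimulated libraries of each inferred set, and Slpi was then at 1.85 (adjusted p = 0.583).

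Scaling by library totals alone moved the higher share of called genes from 55.2% to 25.1% for LPS at 4 h, and the median of all genes from -0.07 to -0.64. At 48 h the share moved from 60% to 34.3%, and the median from -0.09 to -0.58. For DMM against LPS at 48 h the share moved from 18.2% to 29.2% and the median from 0.01 to 0.25. For DMM against succinate the share moved from 14.1% to 34% at 4 h and from 19.8% to 36.9% at 48 h. The Hp and Slpi values of DMM stayed below 0 under both scalings. Unstimulated Hp and Slpi rest on 0 to 6 counts per library, so their baseline differences have wide intervals. The mean share of counts held by the 4 genes, 7.81% at 4 h and 8.01% at 48 h, became 9.26% and 9.49% on the CPM scale.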
